A study of Mus musculus with 9 samples.

Results

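The expression of 10 receptor genes was examined in B16 cells, a mouse melanoma cell line that makes pigment. The genes were the melanocyte receptors Kit, Mc1r and Ednrb and the growth factor receptors Erbb2, Erbb3, Met, Igf1r, Insr, Fgfr1 and Ret. They were taken by gene symbol from 22972 gene names, and all 10 were present in every library. RNA sequencing covered 9 libraries in 3 groups of 3, all from wild-type B16 cells grown on a film of polydimethylsiloxane (PDMS) in medium with fetal bovine serum and collected on day 3. The CTL group was not strained, the MS group was strained cyclically through the film for 72 h, and the Blebb. group received blebbistatin, which inhibits myosin II, for 72 h at 100 ng/mL. The labels of the Blebb. group do not mention straining, whereas the study names it together with MS, so that whether these cells were strained is not settled here. The libraries of a group were called parallel experiments, and nothing stated that they came from separate cultures. The p-values therefore measured the spread between these libraries only, and that spread may be technical.

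Of the 10 receptors, 8 are receptor tyrosine kinases. Typically, though not in every member, these pair at the cell surface when a growth factor binds. They then phosphorylate each other and docking proteins inside the cell, passing the signal to the MAPK and PI3K pathways. The other 2, Mc1r and Ednrb, are G protein-coupled receptors. In the melanocyte lineage, Kit and Ednrb with their ligands (stem cell factor and endothelin 3) guide the survival and migration of precursor cells. Mc1r answers melanocyte-stimulating hormone through cAMP, which drives Mitf, the lineage transcription factor, and the making of black pigment.

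The values were FPKM, fragments scaled to the length of the transcript and to the size of the library, so that levels were set per length and could be compared between genes. The 10 melanocyte markers checked were all at a mean of at least 1 FPKM, and their summed level was between 9597 and 15640 FPKM. None of the 7 fibroblast, 6 keratinocyte and 6 endothelial markers reached that level, and of 7 macrophage markers only Cd68 did, with a mean of 2.14 FPKM. Libraries summed to between 439939 and 484093 FPKM, and their number of reads is unknown. CTL 1, MS 3 and Blebb. 2 stood apart from the other 6 libraries after removal of the trend with GC content. Their scores on the first principal component were then -35.0, -17.3 and -34.2, and the others lay between 2.96 and 21.8. Before the removal their scores were -42.1, -10.0 and -43.9. MS 3 lay there beside Blebb. 1, at -7.29, and the remaining libraries between 6.07 and 35.8. The differences of the 5 receptors tested in limma are given with and without these 3 libraries.

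Mitf acts downstream of Mc1r and binds E-boxes, and the receptor promoters were searched for its letters. These were CATGTG and CACGTG, read on both strands and counted apart, though a window can hold both. The stretches with a match are shown. RefSeq promoter windows of 300 bases on GRCm38.p6, from 250 before to 50 after the start site, were given for 6 of the 10 receptors (Kit, Met, Igf1r, Mc1r, Erbb2 and Ednrb, with 7 windows). Mc1r and Met held such letters, printed in capitals, and Kit, Igf1r, Erbb2 and Ednrb did not. The Mc1r stretch is the 150 bases before its start site, chr8:123406932-123407081 on the plus strand, with E-boxes 62 and 51 bases before the start. The Met stretch is 30 bases around an E-box 126 bases before its start, chr6:17463819-17463848 on the plus strand, which lies inside the longer Met gene of GENCODE M21.
Mc1r: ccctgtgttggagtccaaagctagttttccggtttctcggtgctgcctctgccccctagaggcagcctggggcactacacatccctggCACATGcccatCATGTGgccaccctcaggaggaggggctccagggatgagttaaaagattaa
Met: gggacgaacagaCACGTGctggggcgggta
Over all 32851 windows of this length, 20.4% held either motif on either strand, 14.2% CATGTG and 7.2% CACGTG. A match is a description of the letters and not a binding site.

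In B16 cells 4 of the receptors had a mean well above 1 FPKM, Mc1r, Erbb3, Met and Erbb2. Insr was near 1 FPKM, and Igf1r, Fgfr1, Kit and Ret were below it. Ednrb was listed at 0 in all 9 libraries. The mean over the 9 libraries was 37.6 FPKM ± 9.92 (SD) for Mc1r, 14.9 ± 2.04 for Erbb3, 12.4 ± 4.22 for Met and 8.42 ± 1.04 for Erbb2. It was 1.23 ± 0.307 for Insr, 0.697 ± 0.159 for Igf1r, 0.196 ± 0.0530 for Fgfr1, 0.0382 ± 0.0286 for Kit and 0.0255 ± 0.0132 for Ret. Mc1r stood above 91.6% of all genes by mean level, Erbb2 above 75.6%, and Kit above 41.9%.

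Neighbours in this order were compared within each library on the log2(FPKM + 1) scale, over 9 pairs of neighbours, with a two-sided exact sign-flip permutation test, whose smallest p is 0.0039. The order was set by the means of the same 9 libraries. These p-values therefore describe how steadily it held over them, and a bias of a gene shared by all libraries is not covered. Mc1r exceeded Erbb3 in 9 of 9 libraries by 1.25 ± 0.366 (SD) in log2 level, with an exact p of 0.00391 and an adjusted p of 0.00587. Erbb2 above Insr, Insr above Igf1r, Igf1r above Fgfr1 and Fgfr1 above Kit also held in 9 of 9 libraries with the same exact p. Met could not be placed against Erbb3 or Erbb2 after adjustment. Erbb3 was above Met in 6 of 9 libraries (exact p = 0.0547, adjusted p = 0.0615) and Met above Erbb2 in 7 of 9 (exact p = 0.043, adjusted p = 0.0553). Kit was above Ret in 7 of 9 libraries (exact p = 0.0938).

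**Figure D1:**
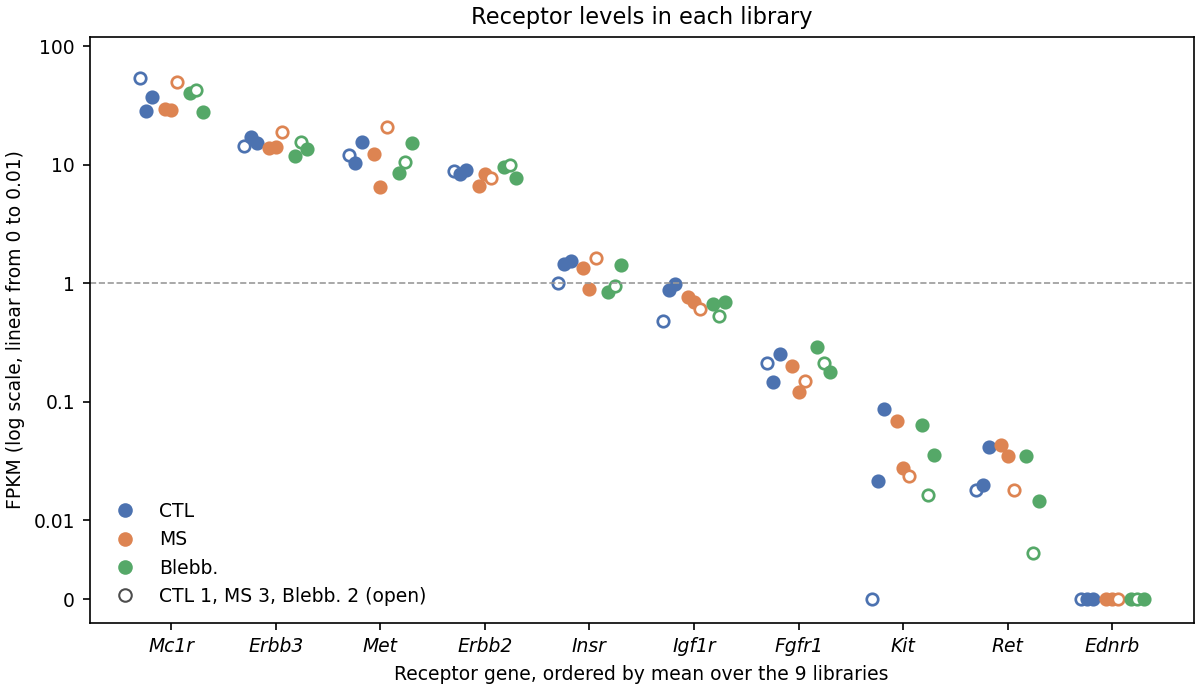
The level of each receptor gene (FPKM, log axis that is linear from 0 to 0.01) in each of the 9 libraries, coloured by group, with CTL 1, MS 3 and Blebb. 2 as open circles and a dashed line at 1 FPKM. Mc1r, Erbb3, Met and Erbb2 lie between 6.41 and 53.9 FPKM in all libraries, and Ednrb lies at 0.

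Among the G protein-coupled receptors, Mc1r (chr8:123407107-123410744 on GRCm38, plus strand, a gene with a single annotated exon) was the highest of the 10 genes. It was at 53.9, 28.1 and 37.4 FPKM in CTL 1 to 3, at 29.3, 29.1 and 50.2 FPKM in MS 1 to 3, and at 40.5, 42.6 and 27.5 FPKM in Blebb. 1 to 3. Its highest values were in CTL 1, MS 3 and Blebb. 2, 1 library of each group and the same 3 that stood apart, and the groups overlapped. In bulk RNA, fewer cells that express a gene and less of its RNA per cell cannot be told apart. Without these 3 libraries the Mc1r mean was 32.0 FPKM ± 5.48 (SD, n = 6). Pmel, the melanosome fibril protein, was also highest in these 3 libraries, with 6318, 5106 and 5679 FPKM against 2079 to 3631 FPKM in the others. Of the other melanocyte markers, Tyr, Dct, Slc45a2 and Oca2 were highest there too, while Sox10, Tyrp1, Mlana and Gpnmb were not. Mlana was lowest in CTL 1 and Blebb. 2, at 970 and 1072 FPKM. Mitf followed no such pattern, at 9.50 FPKM in CTL 1 and 8.51 in Blebb. 2 but 21.2 in MS 3, and between 14.2 and 36.2 FPKM in the others. The Mc1r gene lies whole within the annotated gene Gm20388 of the same strand, and whether reads were shared between them is not given in the sources used here.

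Mc1r made up the whole expression of its family, since Mc2r, Mc3r, Mc4r and Mc5r were listed at 0 in all libraries. Both endothelin receptors were listed at or near 0. Ednrb (chr14:103814625-103844402, minus strand) was at 0, and Ednra, its relative on vascular cells, was at most 0.0224 FPKM, in MS 1.

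In the ErbB family, B16 cells held the pair Erbb3 and Erbb2. Erbb3 binds neuregulins but has little kinase activity of its own, and Erbb2 has no known ligand and signals as the partner of other ErbB receptors. Erbb3 (chr10:128567523-128589652, minus strand) was at 14.4, 17.2 and 15.2 FPKM in CTL, at 13.8, 14.1 and 18.7 FPKM in MS, and at 11.9, 15.6 and 13.6 FPKM in Blebb., in the order of the library numbers. It varied little, with a coefficient of variation of 13.7% over the 9 libraries, and was highest in MS 3. Erbb2 (chr11:98412470-98437716, plus strand) was at 8.80, 8.39 and 9.01 FPKM in CTL, at 6.58, 8.26 and 7.67 FPKM in MS, and at 9.62, 9.85 and 7.64 FPKM in Blebb. All MS libraries lay below all CTL libraries, while Blebb. 1 and 2 lay above all CTL libraries and Blebb. 3 lay within the MS range. Erbb3 exceeded Erbb2 in 9 of 9 libraries, with a mean ratio of FPKM of 1.80 ± 0.348 (SD, n = 9), from 1.24 in Blebb. 1 to 2.44 in MS 3. Egfr, the founding member of the family, was listed at 0 in all libraries, and Erbb4 was above 0 only in CTL 2, at 0.00242 FPKM. The end of Erbb2 overlaps Mien1 on the opposite strand by 9 bases, with Mien1 at a mean of 108 FPKM, and whether counting used strand is not given in the sources used here.

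Met, the receptor of hepatocyte growth factor (chr6:17463800-17573980, plus strand), spread more than Mc1r, Erbb3 and Erbb2, with a coefficient of variation of 34.1%. It was at 12.2, 10.3 and 15.4 FPKM in CTL, at 12.3, 6.41 and 20.6 FPKM in MS, and at 8.58, 10.5 and 15.2 FPKM in Blebb. The lowest and the highest of the 9 values were both in the MS group and differed 3.21-fold. Its relative Mst1r was close to 0, so that Met carried 100.0% of the summed level of the pair.

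Of the insulin receptor family, Insr (chr8:3122061-3279617, minus strand) was the most abundant. It was at 1.01, 1.46 and 1.54 FPKM in CTL, at 1.34, 0.884 and 1.64 FPKM in MS, and at 0.848, 0.950 and 1.42 FPKM in Blebb., and reached 1 FPKM in 6 of 9 libraries. Igf1r (chr7:67952827-68233668, plus strand), the receptor of insulin-like growth factor 1, was at 0.476, 0.876 and 0.976 FPKM in CTL, at 0.769, 0.693 and 0.601 FPKM in MS, and at 0.662, 0.532 and 0.688 FPKM in Blebb. It was lowest in CTL 1, Blebb. 2 and MS 3, the libraries in which Mc1r was highest. Without them its mean was 0.777 FPKM ± 0.125 (SD, n = 6). Insr exceeded Igf1r in 9 of 9 libraries, by a mean ratio of FPKM of 1.80 ± 0.453 (SD, n = 9).

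The remaining kinases were low in every library. Fgfr1 (chr8:25513654-25575718, plus strand) lay between 0.121 and 0.287 FPKM, and Fgfr3 made up 87.4% of the summed level of the 4 FGF receptors. The antisense gene Gm16159 shares 7423 bases with the Fgfr1 gene, and Gm16180 shares 938 bases with Insr, counted over whole genes with their introns. Whether exons are shared was not examined, and neither antisense gene has an FPKM value here. Whether reads of these pairs can be told apart is thus unknown. Kit (chr5:75574916-75656722, plus strand), the receptor of stem cell factor, was listed at 0 in CTL 1 and at most 0.0872 FPKM in the other 8 libraries, in CTL 3. Ret (chr6:118151745-118197718, minus strand), the signalling receptor of the GDNF family, lay between 0.00586 and 0.0431 FPKM. Gfra1, the co-receptor with which GDNF binds Ret, was at a mean of 0.0730 FPKM. At such values a single library can hold few reads, and the number is unknown.

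**Figure D2:**
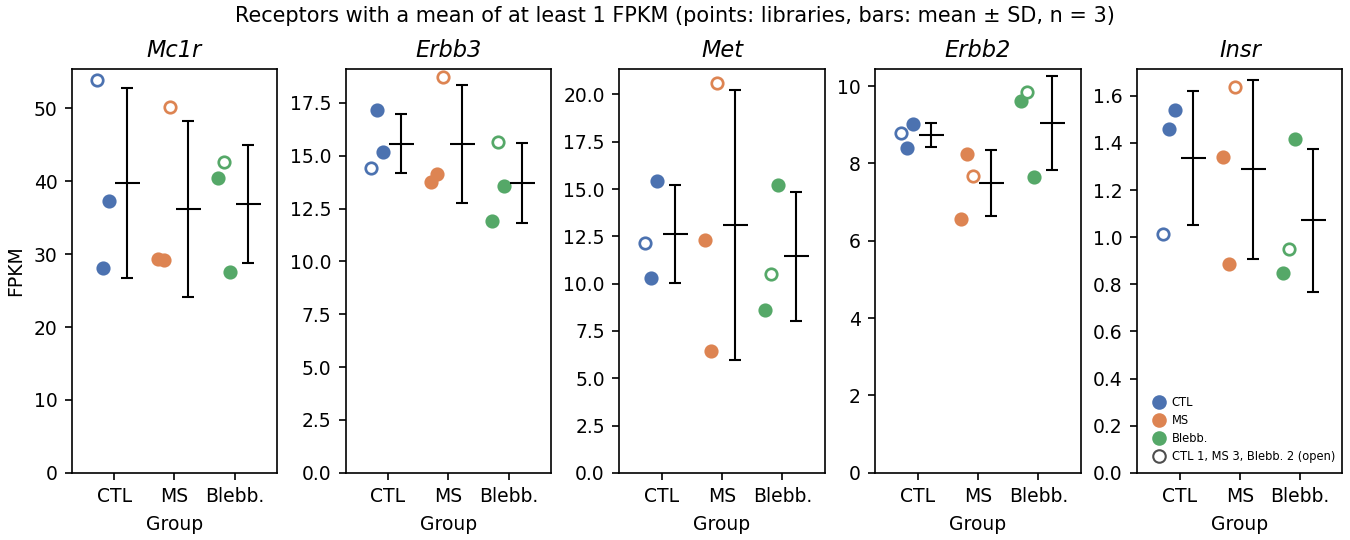
FPKM of the 5 receptors with a mean of at least 1 FPKM in the libraries of each group (points, with CTL 1, MS 3 and Blebb. 2 open) and the group mean ± SD (bars, n = 3), each panel on its own axis from 0. Only for Erbb2 are CTL (8.39 to 9.01) and MS (6.58 to 8.26) apart.

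The comparison of MS with CTL asks whether cyclic straining changed the receptors. No receptor passed the test. Mc1r was at 39.8 FPKM ± 13.1 in CTL and 36.2 ± 12.1 in MS (SD, n = 3 each), Erbb3 at 15.6 ± 1.41 and 15.6 ± 2.78, Met at 12.6 ± 2.60 and 13.1 ± 7.13, and Erbb2 at 8.73 ± 0.313 and 7.50 ± 0.853. All 10109 genes that averaged 1 FPKM or more were tested together in limma with Benjamini-Hochberg adjustment. The test used log2(FPKM + 1), on which changes of low genes appear too small. The 5 receptors above that minimum (Mc1r, Erbb3, Met, Erbb2 and Insr) all had an adjusted p of 1.0, and 0 of 5 passed, as did 0.0% of all genes tested. None had an unadjusted p under 0.05, against 0.158% (16) of all genes. Evenly spread p-values would put far more genes under 0.05 even if none changed. The same holds for the 126 genes in Blebb. against MS and the 9 in Blebb. against CTL. Libraries of the same group lay far apart on the component scored above, which before GC removal took up 70.4% of the variation. Whether this distance made the p-values large was not tested. Such low counts are thus no evidence that the receptors stayed unchanged.

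The smallest p belonged to Erbb2, with a log2 difference of MS from CTL of -0.20 (SE 0.144, 95% interval -0.53 to 0.13, unadjusted p = 0.199, limma), a level between 0.694 and 1.09 times that of CTL. It was the only receptor of the 5 whose groups did not overlap, which was the case for 3.17% of all genes. With the trend of GC content removed from each library, the Erbb2 difference was -0.10, and without the 3 libraries that stood apart it was -0.21. For Mc1r the log2 difference was -0.13 (SE 0.291), with an interval from 0.579 to 1.44 times the CTL level, and for Erbb3 it was -0.01 (SE 0.161), from 0.770 to 1.28 times. The Met difference of -0.07 (SE 0.364), opposite in sign to that of the mean FPKM, had an interval of 0.540 to 1.69 times and depended on which MS library was used, with -0.44 without MS 3 and 0.33 without MS 2. Without the 3 libraries that stood apart the differences were -0.14 for Mc1r, -0.20 for Erbb3, -0.45 for Met and -0.25 for Insr, each with an adjusted p of 1.0 in limma. The median log2 difference of the 5 receptors was -0.07, against -0.0018 over all genes tested.

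**Figure D3:**
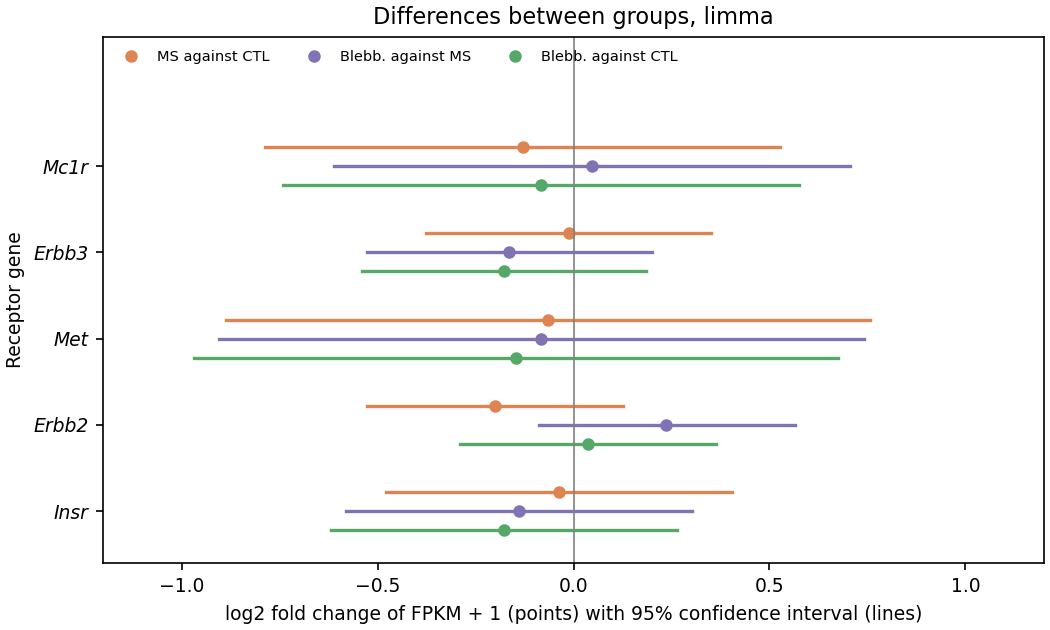
The log2 fold change of FPKM + 1 (points) and its 95% confidence interval (lines) from limma for the 5 receptors tested, in the 3 comparisons. All 15 intervals contain 0, the widest for Met and the narrowest for Erbb2.

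The comparison of Blebb. with MS asks whether the receptors differed between these groups. They differ in the myosin inhibitor and, if the Blebb. cells were not strained, in straining as well, which cannot be told apart here. In this comparison 0 of 5 receptors passed the threshold, against 0.0% of all genes. Mc1r was at 36.9 FPKM ± 8.15 in Blebb., Erbb3 at 13.7 ± 1.88, Met at 11.4 ± 3.42, Erbb2 at 9.04 ± 1.22 and Insr at 1.07 ± 0.302 (SD, n = 3 each). Erbb2 had the smallest p, with a log2 difference of Blebb. from MS of 0.24 (SE 0.144, interval -0.09 to 0.56, unadjusted p = 0.134, adjusted p = 0.897, limma). The MS libraries are shared with the comparison of MS with CTL, so that this is not an independent second result for Erbb2. The Blebb. and MS values of Erbb2 overlapped through Blebb. 3, at 7.64 FPKM. For Erbb3 the difference was -0.16 (SE 0.161), for Insr -0.14 (SE 0.195), for Met -0.08 (SE 0.364) and for Mc1r 0.05 (SE 0.291), with adjusted p between 0.897 and 0.979 in limma. None of the 5 had an unadjusted p under 0.05 (1.25% of all genes did), and none had groups apart (3.73% did). Without the 3 libraries that stood apart, the differences were 0.19 for Mc1r, -0.12 for Erbb3, 0.33 for Met, 0.19 for Erbb2 and 0.01 for Insr.

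Between Blebb. and CTL, 0 of 5 receptors passed (0.0% of all genes), none had an unadjusted p under 0.05 (0.089% of all genes) and none had groups apart (2.08%). The log2 differences of Blebb. from CTL were -0.18 for Erbb3 (SE 0.161, interval 0.687 to 1.14 times), -0.18 for Insr (SE 0.195), -0.15 for Met (SE 0.364), -0.08 for Mc1r (SE 0.291) and 0.04 for Erbb2 (SE 0.144), with an adjusted p of 1.0 for each in limma. Without the 3 libraries that stood apart they were -0.32 for Erbb3, -0.24 for Insr, -0.13 for Met, 0.04 for Mc1r and -0.02 for Erbb2, each with an adjusted p of 1.0 in limma. This comparison shares its CTL libraries with the first and its Blebb. libraries with the second, so that the values are not independent.

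The 4 receptors below the minimum were compared by exact permutation of the libraries, two-sided, in which 3 against 3 libraries cannot go below p = 0.1. The smallest exact p was 0.3 in MS against CTL (Fgfr1), 0.2 in Blebb. against MS (Fgfr1 and Ret) and 0.4 in Blebb. against CTL (Igf1r). Mean Fgfr1 was 0.204 FPKM ± 0.0533 in CTL, 0.157 ± 0.0394 in MS and 0.227 ± 0.0553 in Blebb. Mean Kit was 0.0363 FPKM ± 0.0454 in CTL, 0.0399 ± 0.0249 in MS and 0.0383 ± 0.0237 in Blebb. (SD, n = 3 each). The 3 groups overlapped for all 4 genes. A change of any of these genes was not detectable by this exact test with 3 libraries a group.

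The receptors were then set among all 58 receptor tyrosine kinases of a fixed list. Of these, 14 had a mean of at least 1 FPKM, 35 lay between 0 and 1 FPKM and 9 were listed at 0 in all libraries. Only Ryk, a Wnt receptor without an active kinase, at 36.3 FPKM, and Ddr1, a collagen receptor, at 34.2 FPKM, exceeded Erbb3. Lmtk2 was at 13.4 FPKM and the ephrin receptor Ephb4 at 12.6 FPKM, near Met. Of the 14 kinases tested, 0 rose and 0 fell in any comparison. Groups did not overlap for 2 of the 14 in MS against CTL (Erbb2 and Aatk). The number was 1 in Blebb. against MS and 0 in Blebb. against CTL. The shares over all genes were 3.17%, 3.73% and 2.08%. In Blebb. against MS the smallest p of the list was that of Axl, a receptor of Gas6 (log2 difference 0.68, SE 0.305, adjusted p = 0.897, limma). Axl was at 1.75, 2.52 and 3.69 FPKM in MS and at 3.94, 6.97 and 3.77 FPKM in Blebb., which do not overlap, as was the case for 3.73% of all genes. It was also at 5.76, 2.84 and 3.02 FPKM in CTL, with its highest values of all in CTL 1 and Blebb. 2. Without CTL 1, MS 3 and Blebb. 2, Axl was at 1.75 and 2.52 FPKM in MS and at 3.94 and 3.77 FPKM in Blebb. Groups that do not overlap cannot come to overlap by leaving libraries out, so that this is no further check. In Blebb. against CTL the smallest p was that of Epha3 (log2 difference -0.38, SE 0.283, adjusted p = 1.0, limma). The median log2 difference of the 14 kinases was -0.10 in MS against CTL, 0.03 in Blebb. against MS and -0.07 in Blebb. against CTL, against -0.0018, -0.0059 and -0.013 over all genes.

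**Figure D4:**
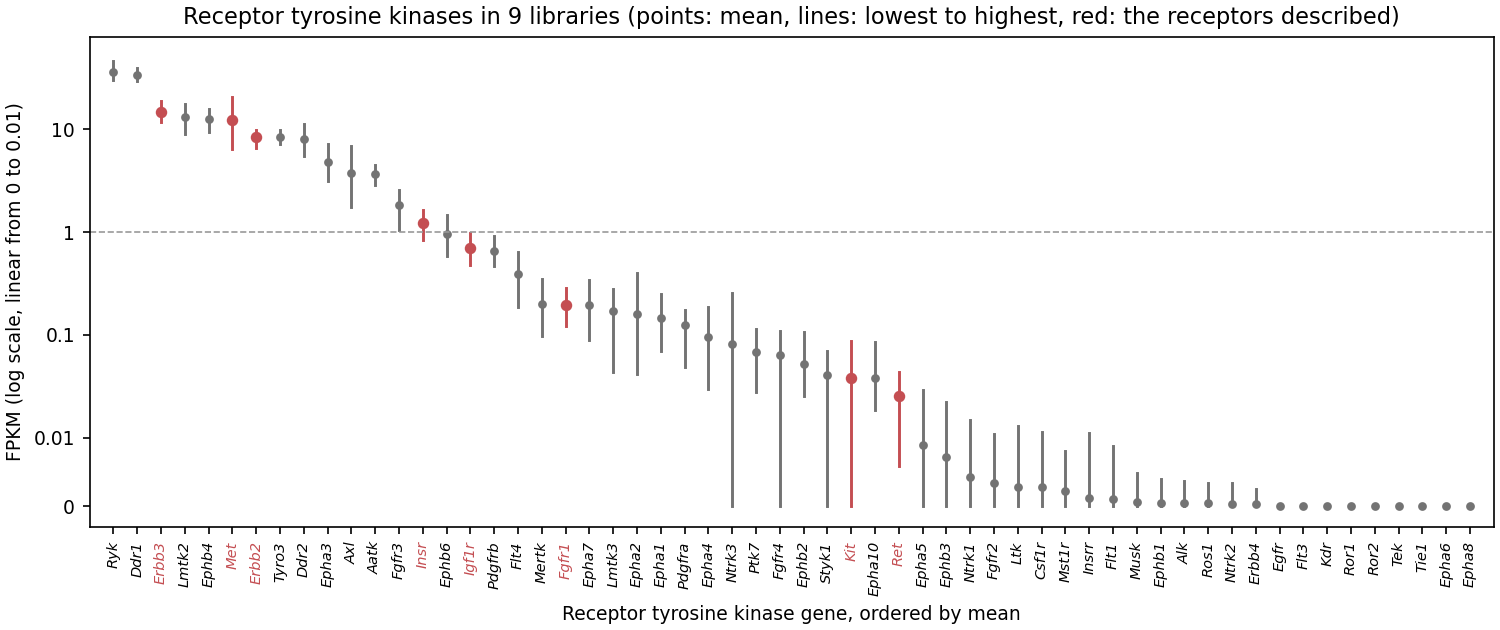
Mean level of 58 receptor tyrosine kinase genes over the 9 libraries (points) with the lowest and highest library (lines), in FPKM on a log axis that is linear from 0 to 0.01, ordered by mean, with the 8 kinases described in red. Erbb3, Met, Erbb2 and Insr are among the 14 genes above the dashed line at 1 FPKM, and Igf1r, Fgfr1, Kit and Ret are below it.

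Of 40 genes for ligands of these receptors and of their families, 36 had a mean under 1 FPKM. The other 4 were Fgf1 at 2.24, Nrtn at 1.53, Hbegf at 1.44 and Tgfa at 1.18 FPKM, and 15 of the 40 were listed at 0 in all libraries. The ligands of the individual receptors are named here for what they bind, with their values already seen. Hgf, the ligand of Met, was listed at 0, as were Igf2, Edn1, Edn2 and Edn3, and the Mc1r antagonist Asip (listed under the symbol a). Kitl, the stem cell factor that binds Kit, was at a mean of 0.0118 FPKM. The Erbb3 ligands were low, with Nrg1 above 0 only in Blebb. 3, at 0.0153 FPKM, and Nrg2 between 0.319 and 0.707 FPKM. Pomc, the precursor of melanocyte-stimulating hormone, was at a mean of 0.905 FPKM and highest in Blebb. 2, at 1.79 FPKM. None of the 4 ligands tested rose or fell. Hbegf, a ligand of Egfr and Erbb4, was at 1.61, 1.54 and 1.98 FPKM in Blebb. and at 1.37, 1.35 and 1.10 FPKM in MS, without overlap, and its log2 difference was 0.25 (SE 0.149, adjusted p = 0.897, limma). Tgfa, another ligand of Egfr, was at 1.055, 1.005 and 1.172 FPKM in Blebb. and at 1.427, 1.268 and 1.173 FPKM in MS, apart by a narrow gap in the opposite direction, with a log2 difference of -0.14 (SE 0.15, adjusted p = 0.897, limma). Groups were thus apart for 2 of 4 ligands tested, against 3.73% of all genes. In Blebb. against CTL they were apart for 1 of 4, Hbegf (1.21 to 1.45 FPKM in CTL), against 2.08% of all genes. In MS against CTL they were apart for 0 of 4, against 3.17%. The median log2 difference of the 4 ligands was -0.06 in MS against CTL, 0.07 in Blebb. against MS and 0.015 in Blebb. against CTL.

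Genes that act beside or below the receptors were also listed. Of 36 co-receptors and ligand-processing genes, 17 reached a mean of 1 FPKM and were tested, 14 lay between 0 and 1 FPKM and 5 were listed at 0. The highest were the glypican Gpc1 at 129 FPKM, the IGF-binding protein Igfbp4 at 80.3 FPKM and Cd44, a partner of Met, at 50.9 FPKM. Mgrn1 and Atrn, which act with agouti on Mc1r signalling, were at 39.6 and 3.99 FPKM. Of 47 adaptors, G proteins and negative regulators, 35 were tested, 9 lay between 0 and 1 FPKM and 3 were listed at 0. They were led by Gnas, the stimulatory G protein that couples Mc1r to cAMP, at 961 FPKM. Gna11, a G protein that endothelin receptors use, was at 63.7 FPKM, and the docking proteins Shc1 and Grb2 at 62.4 and 39.4 FPKM. No tested gene of either list rose or fell in any comparison. Groups were apart for 3, 4 and 0 of the 35 adaptors in MS against CTL, Blebb. against MS and Blebb. against CTL. Among the 17 co-receptors the number was 0 in each. The shares over all genes were 3.17%, 3.73% and 2.08%. The smallest p of the adaptors was that of Adcy3, an adenylate cyclase, in MS against CTL (log2 difference -0.20, SE 0.121), that of the docking protein Dok1 in Blebb. against MS (0.20, SE 0.116) and that of the ubiquitin ligase Cbl in Blebb. against CTL (-0.35, SE 0.238), with adjusted p of 1.0, 0.897 and 1.0 in limma. Among the co-receptors it was that of Igfbp4 in the first pair of comparisons (-0.16 and 0.24) and of Igf2r in Blebb. against CTL (-0.25). The median log2 difference was 0.01, 0.01 and -0.08 for the co-receptors and -0.06, 0.11 and -0.03 for the adaptors, in the same order of comparisons.

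The genes whose log2 level moved most like each receptor over the 9 libraries were found among the 7003 others with a mean of at least 5 FPKM (7004 for Insr, which lies below that mean). These correlations are descriptions, and the libraries share their group, their depth and the difference between 3 and 6 libraries. Mc1r was most like Mapk11 (r = 0.984, and 0.94 over the 6 libraries without CTL 1, MS 3 and Blebb. 2) and Trpc4ap (0.976). Met was most like Wdr48 (0.966, and 0.97 over 6) and Mtfr1 (0.955). Erbb2 was most like Pear1 (0.991, and 0.99 over 6) and Slc9a8 (0.978), and Insr was most like Wnk1 and Ahcyl2 (0.975 each). Erbb3 had the weakest likeness of the 5, with 0.905 for Insig1 and 0.875 for Trmt1l, and 0.014% of the genes compared exceeded 0.9 with it, against 1.6% for Erbb2 and 1.3% for Mc1r.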

How the data were processed

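RNA was extracted with TRIzol, libraries were made with the SMARTER mRNA-Seq kit, and the authors sequenced them on an Illumina platform. The authors deposited 1 FPKM value per gene and library, already scaled by gene length and mapped fragments. The column of CTL 1 was headed by the sample's name and was read as FPKM. The submitters' processing notes name GRCm38 and mm10, and the aligner, the counting program and the annotation are not given in the sources used here. No depth could be recovered, since low values shared no common step, and precision was judged from replicates.

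FPKM was used as deposited, with log2(FPKM + 1) in limma 3.58.1 under R 4.3.3 (lmFit on the 3 groups, eBayes with trend) for the 10109 genes that averaged 1 FPKM or more, an adjusted threshold of 0.05, and exact permutation (Python 3.11.15, numpy 2.4.6) for the others. The fit was tested on simulated data. Positions came from GENCODE M21 on GRCm38, promoters from RefSeq. The receptors and all gene lists were chosen with earlier results of these data known. Besides the receptors, the genes named were the 3 highest of each list, the gene with the smallest p per comparison and, per tested receptor, the 2 genes of highest correlation, and others are marked or stand for a family. The alternatives were other pseudocounts, minima, scalings and fits, libraries left out and removal of the GC trend by loess. The replicate numbers did not pair the samples.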

Additional observations from a re-analysis of the deposited data

How the results depend on the processing

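No receptor passed an adjusted p of 0.05 in any comparison under any alternative run, the smallest adjusted p being 0.45 (limma). The number of genes past that threshold was 0 throughout, except that leaving out 1 library gave 0 to 1 in MS against CTL and in Blebb. against MS. That gene, Gm49527, passed without MS 2 (adjusted p 0.0218 and 0.0398) and was named after its values were seen. Genes with an unadjusted p under 0.05 numbered 16, 126 and 9 in MS against CTL, Blebb. against MS and Blebb. against CTL. With 1 library left out they ranged from 7 (MS 1) to 115 (MS 2), from 34 (MS 1) to 934 (Blebb. 3) and from 7 (Blebb. 1) to 94 (Blebb. 3). Without CTL 1, MS 3 and Blebb. 2 they were 64, 111 and 39, and with no minimum 183, 382 and 183. With the third group dropped from the fit the last 2 counts were 62 and 17, and with the GC trend removed the last was 14. The receptors below the minimum could not pass the exact test under any setting, since its smallest p is 0.1. Those exact tests say nothing of stability. With no minimum, Igf1r, Fgfr1, Kit and Ret entered limma as well, where 0 genes passed in each comparison.

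The direction of a receptor's difference was less stable, with 20 of 90 values turned by leaving out 1 library and 10 of 147 by the other alternatives, and the cause was not tested. With the GC trend removed the log2 difference was 0.0168 for Erbb3 in MS against CTL, -0.0489 for Mc1r, 0.13 for Met and 0.0165 for Insr in Blebb. against MS, and -0.0017 for Erbb2 in Blebb. against CTL. Without CTL 1, MS 3 and Blebb. 2 it was 0.33 for Met and 0.0082 for Insr in Blebb. against MS, and 0.0416 for Mc1r and -0.0175 for Erbb2 in Blebb. against CTL. Quantile normalization gave 0.0072 for Insr in Blebb. against MS. With 1 library left out, the log2 differences that turned in MS against CTL ranged from -0.38 to 0.11 for Mc1r, -0.15 to 0.0631 for Erbb3, -0.44 to 0.33 for Met and -0.15 to 0.10 for Insr. In Blebb. against MS they ranged from -0.0818 to 0.30 for Mc1r and -0.48 to 0.29 for Met, and in Blebb. against CTL from -0.30 to 0.16 for Mc1r, -0.36 to 0.024 for Met and -0.0226 to 0.14 for Erbb2. In FPKM, the differences in MS against CTL ranged from -0.238 to 0.0119 for Igf1r and -0.0144 to 0.0292 for Kit. Those of Kit ranged from -0.0142 to 0.0127 in Blebb. against MS and from -0.0161 to 0.0275 in Blebb. against CTL, and that of Fgfr1 from -0.0073 to 0.047 in Blebb. against CTL.

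Neighbours apart in 9 of 9 libraries must stay so under quantile normalization and without the 3 libraries (adjusted exact p 0.0469). That is no further check. Erbb3 and Met, Met and Erbb2, and Kit and Ret did not pass in either, and without the 3 libraries Erbb3 was above Met, and Met above Erbb2, in 4 of 6 libraries each. Same-numbered libraries deviated together in 2 of 9 pairs (r from -0.78 to 0.84), and 0 libraries correlated best with their own number. With the replicate block, 0 genes passed in each comparison, and 14, 119 and 10 had an unadjusted p under 0.05. With 3 libraries a group and unknown depth, any difference within the intervals given remains possible. These intervals are not adjusted for the number of genes tested, and the smallest difference that could pass was not computed.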
